A study of Solea senegalensis with 8 samples.

Results

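A set of 40 probes on the array carried names ending in HKG and was printed on 10 spots each, against a single spot for every other probe. The study's array design called them replicate probes of putative housekeeping genes. They were found as the non-control probe names present on exactly 10 spots of an array, which gave 40 of 43441 non-control probes and 400 of 43801 non-control spots. The rule used only the layout of the array and no measured value. Of the names, 37 were contigs of the transcriptome assembly, and the others were mmc_euler_21213HKG, gr1_c132191HKG and gr1_c64452HKG. No gene could be attached to any of the 40, because the files pair the probe names with no gene, and the annotation table of the species holds none of these names. The genes behind the probes and their roles are therefore not given here.

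Housekeeping genes serve functions that nearly every cell needs, such as translation, the cytoskeleton and energy metabolism. Their transcripts are often taken as references in expression studies, on the premise that their level stays steady between conditions. Many spots of a probe on one array allow the error of printing and scanning to be measured apart from the difference between samples.

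The arrays measured RNA of whole Senegalese sole larvae at 3 days post hatch, kept since the embryo stage at a salinity of 10 or 36 ppt. There were 4 one-colour arrays per salinity, each hybridised with RNA of a pool of about 100 larvae. The labels give 2 tanks per salinity with 3 pools from each, and the arrays cannot be traced to tanks, so that p-values measure only the spread among these arrays. No cell type was sorted, and fewer cells of a type and less RNA per cell cannot be told apart in such pools. The scanner files and the table of processed values deposited beside them carried opposite salinity labels. Each of its 8 columns followed the scanner values of the same replicate of the other salinity (r of at least 0.998), and its correlation with the array of its own label was at most 0.664. The groups below are named as the scanner files are labelled, and every direction is turned under the labels of the value table. Most changed probes of the study were higher at 10 ppt, the way of the value table and against most calls below. The study's qPCR of selected genes, in larval pools of both salinities, is reported in the same direction as its arrays. The deposited files themselves do not settle which labels are right.

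Signals are given as normalized log2 signals, that is log2 processed intensity minus the 75th percentile of the array. This percentile ranged from 476 to 982 intensity units at labelled 10 ppt and from 715 to 966 at labelled 36 ppt. Replicates 1 and 2 of both salinities were on one slide and replicates 3 and 4 on the other. Replicates 2 and 4 of both salinities carried a gridding status of 2 in the file headers, against 0 for replicates 1 and 3. The median negative control intensity was 272, 509, 668 and 272 on those 4 arrays and between 40.4 and 95.8 on the others. In log2 units the negative control median minus the 75th percentile was -3.56, -1.18, -2.51 and -0.95 on replicates 1 to 4 labelled 10 ppt. It was -3.57, -0.53, -3.26 and -1.48 at labelled 36 ppt. Of the 43441 non-control probes, 4595 were well above background, as defined below, on every array of 1 or both salinities. The part of the background in the percentile, and so in every scaled value below, was not tested.

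The 40 probes fell into 4 sets by what the scanner could measure. A probe was taken as well above background on an array when more than 50% of its spots were marked so, and as saturated when more than 50% of its spots were marked saturated. There were 7 probes saturated on all 4 arrays of at least 1 salinity, and 11 were measured, that is well above background on all arrays of at least 1 salinity and not saturated. A further 7 probes were well above background on 2 to 6 arrays, and 15 on none. In the measured set, 9 probes passed this on every one of the 8 arrays. The exceptions were Contig54739HKG and Contig5799HKG, which missed this on 1 array labelled 10 ppt. Between 176 and 258 of the 400 spots were well above background per array, the fewest on replicate 4 labelled 10 ppt. The scanner software marked 13 to 28 of the 400 spots per array as outliers, and these were left out.

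**Figure D1:**
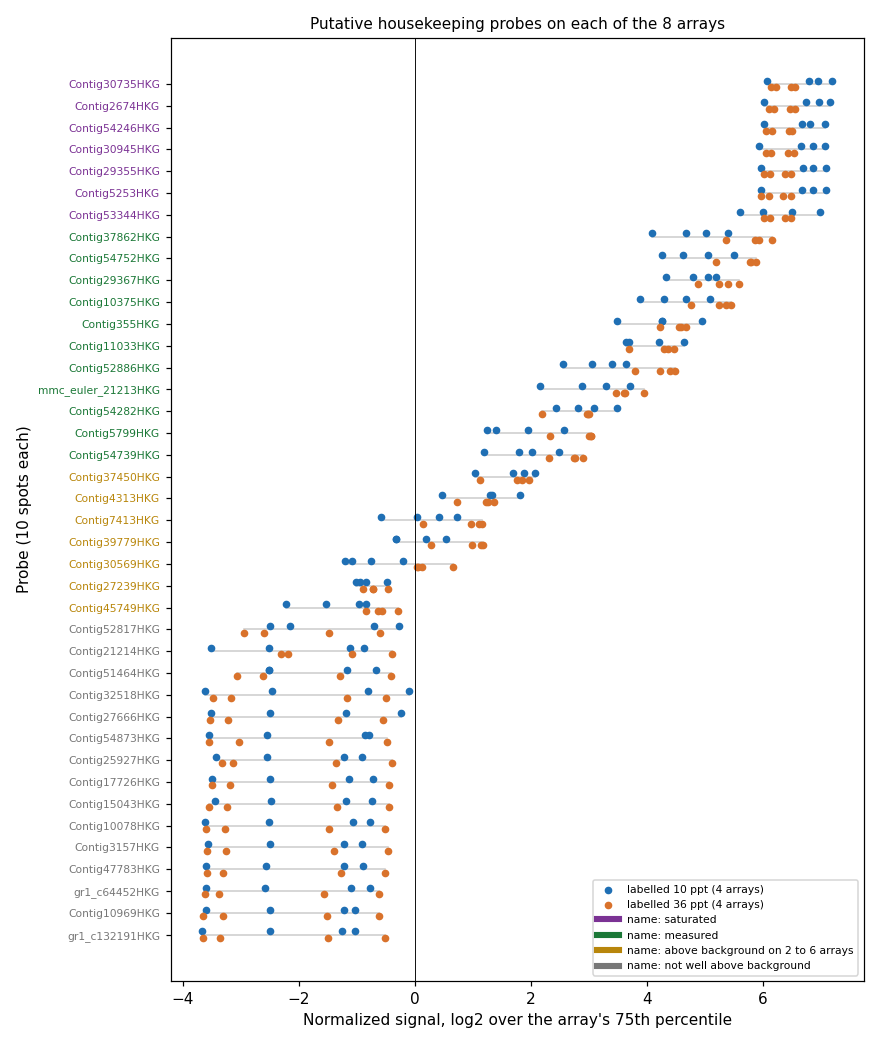
Normalized log2 signal of each of the 40 probes (rows) on each of the 8 arrays (points; blue, labelled 10 ppt; orange, labelled 36 ppt), with the probe names coloured by set. The 7 saturated probes lie together at the top with the points of labelled 10 ppt mostly to the right, the points of labelled 36 ppt lie to the right in most of the 11 measured probes, and the 15 probes not well above background repeat one pattern of array positions.

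The 7 saturated probes were Contig2674HKG, Contig29355HKG, Contig30735HKG, Contig30945HKG, Contig5253HKG, Contig53344HKG and Contig54246HKG. The median signal of a spot stopped at 65527 or 65528, the highest value of the scanner on these arrays. Contig2674HKG, Contig29355HKG, Contig30735HKG and Contig5253HKG stood at that limit with all 10 spots on all 8 arrays. Contig30945HKG and Contig54246HKG did so on 5 arrays and Contig53344HKG on 3. Contig53344HKG was the one saturated probe whose arrays split by salinity, with saturation on 0 of 4 arrays labelled 10 ppt and on 4 of 4 labelled 36 ppt.

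For these probes the value is only a bound on the arrays where they are saturated, and no fold change is given. Before scaling, the processed log2 signal of labelled 10 ppt minus that of labelled 36 ppt lay between -0.06 and 0.02 for 6 of them and was -0.38 for Contig53344HKG. After scaling the same differences were 0.35 to 0.42, and 0.03 for Contig53344HKG. These directions, like all below, follow the scanner labels and are turned under the labels of the value table. The mean log2 of the 75th percentile itself differed between the salinities by -0.40, so that a probe held at the scanner limit takes on a difference of that size with the opposite sign. Contig30735HKG, Contig2674HKG and Contig54246HKG had the highest normalized values of the probes above background on all arrays. Contig30735HKG read 7.19, 6.80, 6.95 and 6.07 on replicates 1 to 4 labelled 10 ppt and 6.23, 6.14, 6.55 and 6.48 at labelled 36 ppt. These values followed the 75th percentile of each array in reverse.

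The first comparison asked whether the probes kept their level between the salinities. The fit by limma with salinity as the only term ran over the 4595 probes with detection on every array of 1 or both salinities, and 18 of the 40 probes were among them (the 11 measured and the 7 saturated). At an adjusted p under 0.05, 3 of the 18 were lower at labelled 10 ppt and 0 were higher. Over all tested probes, 19.9% were called lower and 0.696% higher, or 20.6% in either direction. The count among the housekeeping probes was near that background and is not a result about them. All 3 calls were among the 11 measured probes, and the values of the 7 saturated ones are only bounds on the arrays where they are saturated. At an unadjusted p under 0.05 there were 7 of the 18, all among the 11 measured ones, against 33.1% of all tested probes. Leaving out 1 array moved the count of calls to 0 (without replicate 3 or replicate 4 labelled 36 ppt), 1 (without replicate 2 labelled 10 ppt or replicate 1 labelled 36 ppt) or 7 (without replicate 1 labelled 10 ppt). Over all tested probes the fits with 0 such calls called 553 of 4595 and 544 of 4613. Those with 1 called 586 of 4813 and 596 of 4595, and the one with 7 called 1945 of 4595. The count thus moved with that of all tested probes. Without replicate 2 labelled 36 ppt, 22 housekeeping probes passed the filter and 6 were called, 4 of them measured ones. Over all tested probes, 1927 of 7809 were then called. Without replicate 4 labelled 10 ppt, 2 of 19 housekeeping probes were called and 825 of 5738 over all, 257 of these higher. The median difference over the 18 probes was then -0.02. Without replicate 3 labelled 10 ppt, 3 of 18 were called and 826 of 4616 over all. With normexp background correction, no filter on dim probes or an unequal-variance test per probe, 0 of the housekeeping probes were called. Over all tested probes these gave 35 of 4595, 18 of 43441 and 15 of 4458 calls. The median difference was -0.21 log2 units over the 18 probes, -0.72 over the 11 measured ones and -0.40 over all tested probes.

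Contig52886HKG had normalized log2 signals of 3.64, 3.04, 3.39 and 2.56 at labelled 10 ppt (mean 3.16 ± 0.47, SD, n = 4). At labelled 36 ppt they were 4.23, 3.79, 4.48 and 4.39 (mean 4.23 ± 0.31, SD, n = 4). The 2 groups of arrays did not overlap, and the lowest array of all was replicate 4 labelled 10 ppt. It was the only one of the 11 measured probes whose arrays did not overlap, while 15.0% of the probes with all arrays did so in this direction. The signal was 2.10-fold higher at labelled 36 ppt (difference -1.07 log2 units, SE 0.32, limma adjusted p = 0.00817). The exact two-sided permutation test gave p = 0.0286, the smallest that 4 against 4 arrays allow.

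Contig5799HKG read 2.56, 1.40, 1.94 and 1.25 at labelled 10 ppt and 3.03, 2.33, 3.00 and 3.03 at labelled 36 ppt. Its means were 1.79 ± 0.60 and 2.85 ± 0.35 (SD, n = 4 each). Replicate 1 labelled 10 ppt lay above replicate 2 labelled 36 ppt, so the groups overlapped by that pair of arrays. The signal was 2.08-fold higher at labelled 36 ppt (difference -1.06, SE 0.32, limma adjusted p = 0.00907; exact permutation p = 0.0571). The probe was well above background on 3 of the 4 arrays labelled 10 ppt and entered the test through labelled 36 ppt, where it was higher, so that its test is tied to that choice. With a filter requiring all 8 arrays it was not tested, and the other 2 calls remained.

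Contig37862HKG read 5.40, 4.67, 5.01 and 4.08 at labelled 10 ppt and 5.93, 5.36, 6.15 and 5.86 at labelled 36 ppt. Here too only replicate 1 labelled 10 ppt reached into the range of the other salinity. The means were 4.79 ± 0.56 and 5.82 ± 0.33 (SD, n = 4 each), and the signal was 2.04-fold higher at labelled 36 ppt (difference -1.03, SE 0.32, limma adjusted p = 0.0111; exact permutation p = 0.0571).

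The other 8 measured probes did not pass the adjusted threshold. Contig54752HKG (difference -0.80, 95% interval -1.44 to -0.17, limma adjusted p = 0.0602) and Contig54739HKG (-0.80, -1.44 to -0.17, limma adjusted p = 0.0598) lay just outside it. Contig54739HKG, like Contig5799HKG, entered the test only through labelled 36 ppt, where it was higher. Contig54752HKG read 5.50, 4.63, 5.04 and 4.25 at labelled 10 ppt and 5.77, 5.19, 5.88 and 5.79 at labelled 36 ppt. Contig10375HKG had a difference of -0.72 (95% interval -1.36 to -0.09) and mmc_euler_21213HKG of -0.65 (-1.29 to -0.02). These intervals use 1 standard error shared by all complete probes and taken as known, and not the spread of each probe. The exact permutation test gave p = 0.0571 for Contig54752HKG, Contig54739HKG and Contig10375HKG, and 0.114 for mmc_euler_21213HKG. In these 4 probes each replicate labelled 10 ppt was lower than the replicate of the same number labelled 36 ppt, while the ranges of the groups overlapped.

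The smallest differences among the measured probes were those of Contig11033HKG, Contig54282HKG, Contig355HKG and Contig29367HKG. Contig11033HKG read 4.63, 3.70, 4.21 and 3.63 at labelled 10 ppt and 4.29, 3.68, 4.36 and 4.46 at labelled 36 ppt (difference -0.16, 95% interval -0.79 to 0.48). Its groups lay over each other, with replicate 1 labelled 10 ppt the highest array. Contig54282HKG read 3.49, 2.82, 3.09 and 2.44 at labelled 10 ppt and 2.98, 2.19, 3.01 and 2.97 at labelled 36 ppt, and was the only measured probe with a positive difference (0.17, 95% interval -0.46 to 0.81). Contig355HKG (-0.27, 95% interval -0.90 to 0.37) and Contig29367HKG (-0.43, -1.07 to 0.20) came next. All these intervals hold values far from 0 on at least one side, so that steadiness within a narrow limit is not shown for any of them.

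Unscaled intensities gave another picture of the same arrays. Contig29367HKG read 17352, 17136, 18222 and 19785 intensity units at labelled 10 ppt and 34729, 28354, 34458 and 31931 at labelled 36 ppt. Those of mmc_euler_21213HKG were 6198, 6022, 4007 and 4391 against 14238, 11669, 8801 and 8430. In both probes all arrays labelled 10 ppt were below all arrays labelled 36 ppt, and this held for 10 of the 11 measured probes, all but Contig54282HKG. Over all tested probes with all arrays, 68.3% had unscaled arrays that did not overlap in this direction. Unscaled values include every difference between whole arrays.

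Direction and calls depended on how the arrays were put on a common scale. Across 7 scalings (75th percentile, quantile, median of the probes above background on all arrays, spike-in mean, none, mean of the 16 housekeeping probes above background on all arrays, and mean of the 9 unsaturated ones), 7 of the 11 measured probes were lower at labelled 10 ppt each time. These were the 3 called probes, Contig10375HKG, Contig54739HKG, Contig54752HKG and mmc_euler_21213HKG. Contig52886HKG ranged from -1.58 (spike-in mean) to -0.52 (mean of the 9 unsaturated probes), Contig5799HKG from -1.57 to -0.51 and Contig37862HKG from -1.55 to -0.48. These 3 were called lower under each of the 7 scalings. Over all 4595 tested probes, the number called lower ran from 816 (mean of the 9 unsaturated probes) to 3557 (no scaling). The share of all tested probes that were lower, or called lower, under every scaling was not computed. The counts across the 7 scalings are therefore not a result about the housekeeping probes. Of the 16 housekeeping probes used for scaling, 7 are saturated. Both housekeeping means include measured probes that are then compared. The sign of the other 4 measured probes turned with the scaling. Contig54282HKG ranged from -0.34 to 0.72 and was called higher under 4 of them, Contig11033HKG from -0.67 to 0.40 with 3 calls higher and 1 lower, Contig355HKG from -0.78 to 0.28 with 1 call each way, and Contig29367HKG from -0.94 to 0.12 with 2 calls lower.

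**Figure D2:**
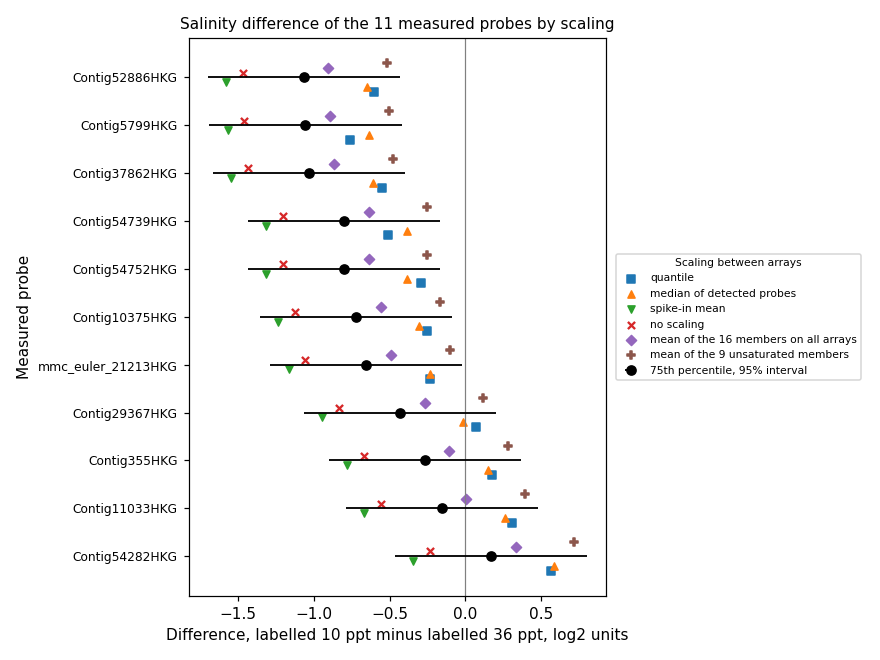
Difference in log2 signal between the salinities (labelled 10 ppt minus labelled 36 ppt) for the 11 measured probes under 7 scalings; black points and bars give the 75th percentile scaling with its 95% interval from limma, coloured marks the other scalings. The marks move together from probe to probe, the top 7 probes stay left of 0 under all scalings, and the lower 4 cross it.

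Under the 75th percentile scaling, the difference lay lower on the second slide than on the first for each of the 11 measured probes. On slide 1 that percentile was 476 and 616 at labelled 10 ppt and 918 and 966 at labelled 36 ppt. On slide 2 it was 547 and 982 against 715 and 760. The scaling subtracts it, so the values of each slide include its difference. Contig30735HKG, held at the scanner limit, differed by 0.81 on slide 1 and by -0.005 on slide 2. Contig52886HKG differed by -0.67 on slide 1 and by -1.47 on slide 2, Contig5799HKG by -0.70 and -1.42, and Contig37862HKG by -0.61 and -1.46. Contig11033HKG (0.18 and -0.49), Contig355HKG (0.20 and -0.73) and Contig54282HKG (0.57 and -0.23) changed sign between the slides. A fit with the slide as a block called the same 3 probes. Each slide held 2 arrays per salinity, so these values rest on 2 against 2 arrays. The difference between the slides was not tested.

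The deviations of the tested probes from the means of each salinity correlated between the 2 arrays that share a number (r of 0.359 to 0.488 across probes), and a fit with the replicate number as a block is therefore given beside the main one. It called 6 of the 18 probes lower and 0 higher, where 26.6% of all tested probes were called in either direction. Beside the 3 named above, these were Contig54739HKG (limma adjusted p = 0.0266), Contig54752HKG (0.02685) and Contig10375HKG (0.04999). Here too Contig54739HKG and Contig5799HKG were in the fit only through labelled 36 ppt, where they were higher. Within the pairs of equal number, the difference of each of these 6 probes was smallest in pair 1 and largest in pair 4. This also held for Contig29367HKG (-0.05 and -1.06) and mmc_euler_21213HKG (-0.25 and -1.31), which were not called. The differences of Contig52886HKG were -0.59, -0.75, -1.10 and -1.84. Its unscaled intensities were 5941, 5086, 5727 and 5775 at labelled 10 ppt against 17226, 13398, 16010 and 15992 at labelled 36 ppt. Contig30735HKG, held at the scanner limit, differed by 0.96, 0.66, 0.40 and -0.41 in these pairs. The scaling subtracts a percentile of each array, and the values of each pair include its difference.

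The measured housekeeping probes followed the shift of the other unsaturated probes of an array. Relative to the mean of its salinity, the median measured housekeeping probe deviated by 0.60, -0.12, 0.18 and -0.60 log2 units on replicates 1 to 4 labelled 10 ppt and by 0.09, -0.45, 0.22 and 0.14 at labelled 36 ppt. The median over all unsaturated probes above background on all arrays deviated by 0.57, -0.20, 0.20 and -0.59, and by 0.05, -0.41, 0.23 and 0.14. The lowest array for both was replicate 4 labelled 10 ppt, the one with the highest 75th percentile. The SD between arrays of one salinity was 0.34 for Contig29367HKG, 0.35 for Contig54246HKG and 0.37 for Contig30735HKG, the lowest of the 16 probes above background on all arrays, and 0.49 for mmc_euler_21213HKG, 0.46 for Contig37862HKG and 0.45 for Contig53344HKG, the highest. Contig54246HKG, Contig30735HKG and Contig53344HKG are saturated, and where they are, their values reflect the 75th percentile of the arrays and show no steadiness of signal. Contig53344HKG was not saturated on the arrays labelled 10 ppt. Its unscaled intensities there were 59738, 39519, 49671 and 47951, so its SD includes differences in signal too. The median over the 9 unsaturated ones was 0.42, against 0.43 over 2846 unsaturated probes of the array. Those 9 are means of up to 10 spots and the others single spots, so these medians are not of like measures.

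A measure that adding a constant to all log2 values of an array cannot change, though quantile normalization can, was taken from ratios of probes on the same array. For each pair of probes the SD over the 8 arrays of their log2 ratio was computed. A probe's pairwise stability value is the mean of this SD over the other probes. A low value stands for a probe that moved with the others of its set, and not for a probe that kept its level. Over the 16 probes above background on all arrays the median was 0.36 log2 units. The lowest values were those of Contig53344HKG (0.33), Contig355HKG (0.34) and Contig30945HKG (0.35), and the highest those of Contig52886HKG (0.54), Contig37862HKG (0.53) and mmc_euler_21213HKG (0.50). Of the 3 lowest, Contig53344HKG and Contig30945HKG are saturated, the former at labelled 36 ppt only, and a probe at the scanner limit cannot follow the arrays.

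With the saturated probes left out, a choice made after the data were examined, the order was another one. Contig10375HKG (0.26), Contig54752HKG (0.27) and Contig29367HKG (0.29) then had the lowest values against the other measured probes and Contig54282HKG the highest (0.47). Within a salinity the median value of the 9 probes was 0.16, less than their 0.34 over all 8 arrays. Against all 2846 unsaturated probes the 9 had a median of 0.33 over the 8 arrays, the same as the 0.33 of those probes themselves. Within a salinity these medians were 0.20 and 0.22, so the fall was not particular to the 9. Within a salinity Contig10375HKG stood at percentile 0.07 of the 2846 probes, Contig54752HKG at 2.07 and Contig52886HKG at 2.81, while mmc_euler_21213HKG stood at 94.7. Contig52886HKG thus had a low value within a salinity, and over the 8 arrays it stood at percentile 80.1. The 9 probes are means of up to 10 spots and the others of the 2846 single spots. These medians and percentiles are therefore not of like measures, and the low percentiles show no unusual steadiness of a transcript.

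Ratios of the 9 probes often separated the salinities. Of their 36 pairs, 23 (63.9%) had log2 ratios that did not overlap between the salinities, against 44.0% of the 4048435 pairs of unsaturated probes. Pairs share probes and arrays and are given as a description. The 9 probes are means of up to 10 spots and the other unsaturated probes single spots, so the 2 shares are not of like measures. The log2 ratio of Contig52886HKG over Contig54282HKG was 0.16, 0.23, 0.30 and 0.12 at labelled 10 ppt (mean 0.20 ± 0.08, SD, n = 4). At labelled 36 ppt it was 1.25, 1.60, 1.48 and 1.42 (mean 1.44 ± 0.15), which is a difference of -1.24 with a wide gap between the groups. The smallest differences in ratio included Contig10375HKG over Contig54752HKG at -0.37 ± 0.04 and -0.45 ± 0.05 (SD, n = 4 each), whose groups still did not overlap, and Contig37862HKG over Contig52886HKG at 1.63 ± 0.09 and 1.60 ± 0.11, whose groups did.

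Each probe was also set against the mean of the other 8 on the same array. Contig54282HKG read -1.27, -1.27, -1.23 and -1.11 at labelled 10 ppt and -1.93, -2.24, -2.02 and -1.94 at labelled 36 ppt, 0.81 log2 units higher at labelled 10 ppt with no overlap. Contig52886HKG was 0.58 and Contig37862HKG 0.54 lower at labelled 10 ppt by this measure, again with no overlap. The groups overlapped for Contig11033HKG, Contig29367HKG and mmc_euler_21213HKG. The share of all probes that did not overlap by this measure was not computed. The 44.0% of pairs named above is the nearest background, and the lack of overlap is no result about these probes. A difference of this kind shows only that probes changed unequally, and not which of them kept its level.

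The relative level of mmc_euler_21213HKG followed the slide. It was -1.03 and -0.74 on the slide 1 arrays labelled 10 ppt and -1.47 and -1.42 on those of slide 2. At labelled 36 ppt it was -0.83 and -0.66 on slide 1 and -1.33 and -1.38 on slide 2. In both salinities the slide 2 arrays were below the slide 1 arrays, which was also the case for Contig355HKG, while Contig29367HKG and Contig52886HKG were higher on slide 2. The part of the slide in the stability values of these probes was not tested.

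**Figure D3:**
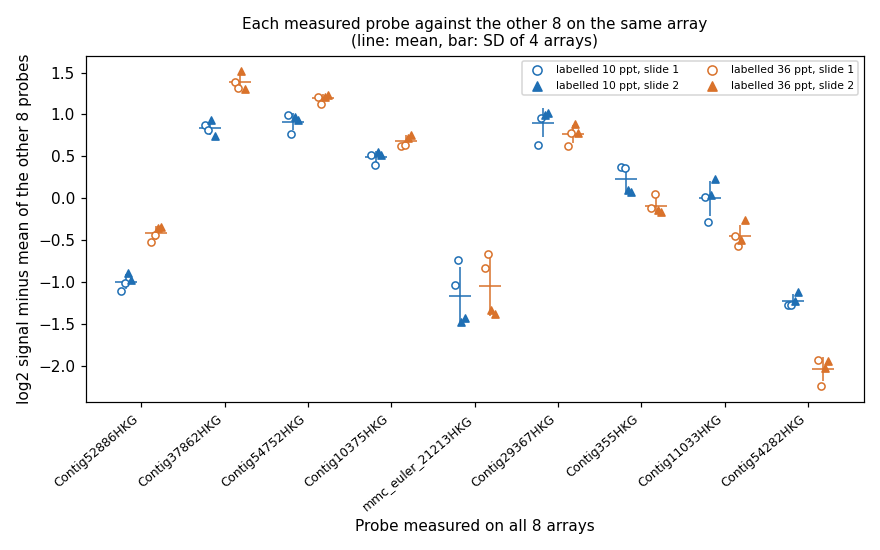
Log2 signal of each of the 9 probes measured on all arrays minus the mean of the other 8 on the same array (points; open circles slide 1, filled triangles slide 2; blue, labelled 10 ppt; orange, labelled 36 ppt), with the mean and SD of 4 arrays. Contig52886HKG and Contig37862HKG lie lower and Contig54282HKG higher at labelled 10 ppt without overlap, and mmc_euler_21213HKG splits by slide.

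The 10 spots of a probe share one labelled RNA and are technical repeats. On an array the SD between spots of the measured probes was small, with medians over the arrays from 0.06 log2 units (Contig54752HKG, mmc_euler_21213HKG) to 0.14 (Contig54739HKG). Contig29367HKG had the next smallest median over all 40 probes (0.07). The largest medians were those of probes near background, 0.42 for Contig45749HKG, 0.38 for Contig52817HKG and 0.37 for Contig7413HKG. For single arrays the SD reached 1.23 in Contig45749HKG. Among the measured probes it reached 0.52 in Contig54739HKG, 0.36 in Contig5799HKG and 0.34 in mmc_euler_21213HKG.

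Under the 75th percentile scaling, most of the spread of a measured probe was between arrays and little between spots. Spots took 1.83% (Contig54752HKG) to 10.6% (Contig54282HKG) of the variance of a single spot within a salinity. The mean of 10 spots had a standard error of 0.02 to 0.05 log2 units, against SDs of 0.34 to 0.49 between arrays. The median SD between arrays of the 16 probes above background on all arrays changed under other scalings. It fell from 0.41 to 0.15 with no scaling, 0.14 with the median of the detected probes and 0.064 with quantile normalization, while the spike-in mean gave 0.59. Of these 16 probes 7 are saturated, and a probe at the scanner limit cannot follow the arrays. These medians therefore show no steadiness of the measured probes, whose own medians under the other scalings were not computed. The salinity difference of single spots kept on all arrays was below 0 for the 3 called probes. For Contig37862HKG the 8 spots kept on all arrays gave differences from -1.07 to -0.95, for Contig52886HKG 9 spots gave -1.19 to -0.98, and for Contig54739HKG 10 spots gave -1.01 to -0.47, the widest range of the 11. For Contig5799HKG 7 spots gave -1.25 to -0.94, but its first spot, which was not kept on all arrays, gave -0.79 and no call (limma adjusted p = 0.0913).

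**Figure D4:**
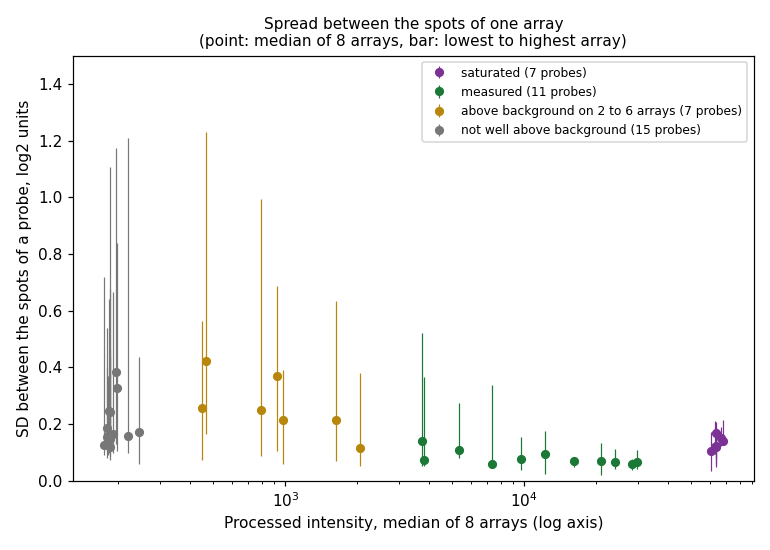
SD of log2 processed signal between the spots of a probe on one array (vertical axis; point, median of the 8 arrays; bar, lowest to highest array) against the median processed intensity of the probe (horizontal log axis), coloured by set. Most of the 11 measured probes have small medians (0.06 to 0.14), probes near background have long bars, and the 7 saturated probes on the right lie above most of the measured ones.

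The saturated probes had larger spot SDs than most of the measured ones, with medians from 0.10 (Contig53344HKG) to 0.17 (Contig54246HKG). Their median signals before background subtraction and removal of spatial trends had a spot SD whose median over the arrays was 0 for 6 of the 7 and 0.06 for Contig53344HKG. Contig30945HKG and Contig54246HKG were below the limit with some spots on the other 3 arrays. In the measured probes the median signal had spot SDs of 0.10 to 0.36, and the processed signal 0.06 to 0.14, lower in each of the 11. The deviation of a spot from the mean of its probe returned on other arrays. The median correlation of these deviations was 0.80 between arrays of one slide and 0.54 between slides for the 70 saturated spots, 0.43 and 0.29 for the 90 spots of the 9 measured probes, and 0.08 and 0.02 for the 150 spots not well above background. These are correlations across spots, which share arrays and positions, and are given as a description.

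The 7 probes above background on some arrays were Contig37450HKG (6 arrays), Contig39779HKG, Contig4313HKG and Contig7413HKG (5 each), Contig27239HKG and Contig30569HKG (3 each) and Contig45749HKG (2). None was well above background on all arrays of a salinity, and none was tested. Contig30569HKG read -0.76, -1.21, -1.08 and -0.21 at labelled 10 ppt and 0.12, 0.05, 0.04 and 0.66 at labelled 36 ppt, with 1 and 2 arrays well above background. Its groups did not overlap, but only 3 of its 8 readings were well above background, and no fold is given. Contig45749HKG read -2.22, -0.84, -1.53 and -0.97 against -0.57, -0.64, -0.29 and -0.83. These groups did not overlap either, by a narrow gap. The share over other probes near background was not computed. Contig4313HKG read 1.81, 1.30, 1.33 and 0.47 against 1.22, 0.73, 1.36 and 1.26, and its groups overlapped throughout.

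The 15 probes not well above background on any array were Contig10078HKG, Contig10969HKG, Contig15043HKG, Contig17726HKG, Contig21214HKG, Contig25927HKG, Contig27666HKG, Contig3157HKG, Contig32518HKG, Contig47783HKG, Contig51464HKG, Contig52817HKG, Contig54873HKG, gr1_c132191HKG and gr1_c64452HKG. Their readings followed the background of the array. The median processed intensity over the 15 was 40.6, 276, 96.9 and 572 on replicates 1 to 4 labelled 10 ppt. It was 78.9, 681, 75.8 and 290 at labelled 36 ppt. The median negative control intensity was 40.4, 272, 95.8 and 509 at labelled 10 ppt and 77.4, 668, 74.5 and 272 at labelled 36 ppt, close to the probes on each array. The normalized values of Contig3157HKG ranged from -3.58 to -0.47 over the 8 arrays. The SD between arrays of the 15, 1.07 to 1.53, is given as a reading near background and not as the stability of a transcript.

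Each of the 40 probes had a counterpart of the same name without the ending HKG, printed on 1 spot. Whether the sequences are the same was not examined, since the probe sequences were not among the files used here. Across the 40 probes the normalized signals of both correlated at 0.946 (replicate 4 labelled 10 ppt) to 0.997 on an array. For the measured probes the single spot differed from the mean of the 10 by a median of 0.06 log2 units in size, and 69 of 87 values lay within the range of the 10 spots. The largest gap was 0.84, for Contig54739HKG on replicate 4 labelled 10 ppt, where the single spot was brighter.

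The single-spot counterparts gave nearly the same calls. Of those of the 11 measured probes, 4 were called lower at labelled 10 ppt (19.9% over all tested probes), namely Contig37862, Contig52886, Contig5799 and Contig54752, and 10 of the 11 pairs had the same call. The salinity differences of the pairs were at most 0.28 log2 units apart. Both probes of a pair were read on the same arrays, so the counterparts are no independent replicates. Near background the agreement was lower. The log2 signal of Contig25927HKG minus that of Contig25927, on 1 spot, was -2.84 on replicate 1 labelled 36 ppt and -1.82 on replicate 1 labelled 10 ppt, yet Contig25927 was well above background on 1 array only.

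**Figure D5:**
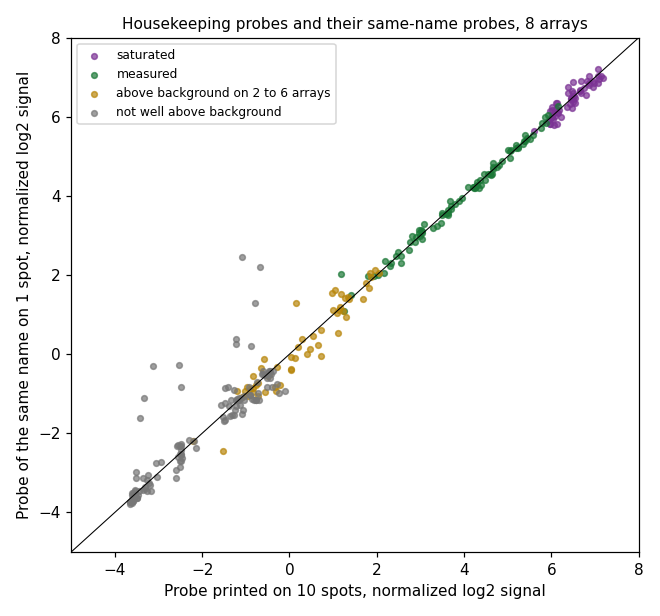
Normalized log2 signal of the probe printed on 1 spot (vertical axis) against that of the same-name probe printed on 10 spots (horizontal axis), 40 probes on 8 arrays, coloured by set; the line marks equal values. Measured and saturated probes lie along the line, and the points far above it belong mostly to probes not well above background.

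In the deposited value table all 10 spots of each of the 40 probes carried 1 common value per array, so the spread between spots cannot be taken from it. These values followed the mean log2 signal of the spots after outlier spots were left out, centred on the probe's median over the 8 arrays, with a median gap of 0.02 log2 units (0.01 for the measured probes). By the table's own labels the same 3 probes were called, with the directions turned. The differences were then 1.08 for Contig52886HKG, 1.10 for Contig5799HKG and 1.04 for Contig37862HKG.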

How the data were processed

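RNA of 8 larval pools was measured on one-colour 60-mer arrays. Scanner tables were deposited by the authors for every array, written by Agilent Feature Extraction (10.7.3.1 in the file headers, 9.1 in the submitters' processing notes), whose processed intensity was background-subtracted and detrended within the array with no scaling between arrays. A table of log2 values was deposited as well, which follows log2 processed intensity minus the 75th percentile, centred by spot. Their column medians, in the order of the table's own labels (replicates 1 to 4 of 10 ppt, then of 36 ppt), were -0.96, 1.11, -0.98, 0.50, -0.86, 0.60, -0.51 and 0.78. The files do not settle which deposit carries the right salinity labels. The direction stated by the study, for its arrays and for its qPCR of selected genes, runs the way of the value table. The table had 2 rows without a scanner spot, and 0 columns of per-sample values were left unused.

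All computations ran in R (4.3.3), the fits in limma (3.58.1), and figures drawn with matplotlib (3.10.9). Outlier spots were left out, spots of a probe averaged, and lmFit and eBayes run on all 4595 tested probes with Benjamini-Hochberg adjustment over all of them and an adjusted p under 0.05 as threshold. The prior degrees of freedom were infinite (Inf), so that complete probes shared a standard error of 0.32. The fit was tested on simulated data. The number of arrays limits the precision.

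The probes and lists were chosen with earlier results of these data known. Named were all called probes; among those above background on all arrays, the 3 extremes of signal, of spread between arrays, of pairwise stability and the 3 smallest differences; the 3 extremes of spot spread; and others by range, with further probes named after their values were seen. The labels state no shared origin for arrays that share a replicate number. The replicate block rests on correlations in the data alone (r of 0.359, 0.378, 0.488 and 0.432 for replicates 1 to 4). Arrays of different numbers were not compared in this way. Alternatives were the scalings named in the report, normexp correction (offset 50, on the median spot signal), the value table, outlier spots kept, a filter that required all 8 arrays or none, medians of the spots, the first spot only, slide and replicate blocks, a trended robust prior, an unequal-variance test per probe, an exact permutation test and each array left out. Chosen after the data were examined were the mean of the 9 unsaturated probes, the arrays with gridding status 0, and pairwise stability without saturated probes. No probe sequence or gene name was used here.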

Additional observations from a re-analysis of the deposited data

Results flagged for a closer look

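Of 80 groups of 4 arrays (40 probes at 2 salinities), 4 held an array far from the other 3, all at labelled 36 ppt; chance flags about 1 in 20 groups. Replicate 2 lay below the others for Contig54282HKG (2.19, nearest 2.97), Contig54752HKG (5.19, nearest 5.77) and Contig5799HKG (2.33, nearest 3.00), on the array where the median over all unsaturated probes was also the lowest of its salinity (-0.41). Replicate 4 lay above the others for Contig30569HKG (0.66, nearest 0.12), a probe well above background on 3 arrays only. The cause was not tested.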

How the results depend on the processing

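Counts of calls are given as the tested housekeeping probes, then the measured ones, then all tested probes. These numbered 18, 11 and 4595 unless another number is given. The 75th percentile scaling gave 3, 3 and 947. Quantile normalization gave 9 (6 lower, 3 higher), 8 and 1844 (55.9% lower), the median of the detected probes 15 (6 lower, 9 higher), 8 and 2342 (49.1% lower), the spike-in mean 7, 7 and 1888, no scaling 11, 10 and 3571, the mean of the housekeeping probes 14 (7 lower, 7 higher), 8 and 2468 (77.1% lower), and the mean of the unsaturated ones 15 (5 lower, 10 higher), 8 and 2385 (34.2% lower). In that order the measured probes held 2, 2, 0, 0, 1 and 3 of the calls higher, and the saturated ones the rest. Normexp gave 0, 0 and 35 (0 of the 18 and 237 of all at an unadjusted p under 0.05). No filter gave 0 of 40, 0 and 18 of 43441 (4 of 40 and 1572 unadjusted). The unequal-variance test gave 0, 0 and 15 of 4458 (3 of 18 and 912 unadjusted). The arrays with gridding status 0 alone gave 1 of 25, 0 and 1400 of 14252. With a replicate block there were 6, 6 and 1223. The filter requiring all 8 arrays gave 2 of 16, 2 of 9 and 454 of 3263. The value table gave 3, 3 and 944 with directions turned. Without one array the calls ranged from 0 to 7 among the 18 and among the 11, and from 544 of 4613 to 1945 of 4595 over all. There were 0 without replicate 3 or 4 labelled 36 ppt, each with 5 at an unadjusted p under 0.05 (553 of 4595 and 544 of 4613 over all). There was 1 without replicate 2 labelled 10 ppt or replicate 1 labelled 36 ppt (586 of 4813 and 596 of 4595 over all). The 7 came without replicate 1 labelled 10 ppt (1945 of 4595 over all). Without replicate 2 labelled 36 ppt there were 6 of 22 tested ones, 4 of the 11 and 1927 of 7809 over all. Without replicate 4 labelled 10 ppt there were 2 of 19, 2 of the 11 and 825 of 5738 (68.8% lower). Without replicate 3 labelled 10 ppt there were 3 of 18, 3 of the 11 and 826 of 4616.

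The median difference over the 18 probes moved from -0.21 to 0.21 (median of the detected probes), -0.73 (spike-in mean), 0.34 (mean of the unsaturated probes) and 0.22 (value table). It was -0.62 with no scaling, 0.07 with quantile normalization and -0.05 with the mean of the housekeeping probes. When 1 array was left out it ranged from -0.43 to -0.02. Of the 18 probes 7 are saturated, and at the scanner limit a scaled difference follows the scaling. The median over the 11 measured probes was -0.72 in the main fit and was not computed under the alternatives. The median over all tested probes moved from -0.40 to -0.04 (quantile), 0.02 (median of the detected probes), -0.92 (spike-in mean), -0.80 (no scaling), -0.23 (mean of the housekeeping probes) and 0.16 (mean of the unsaturated ones). The median spot SD of 0.14 became 0.22 with normexp. The median SD between arrays of 0.41 became 0.064 (quantile), 0.14 (median of the detected probes), 0.59 (spike-in mean) and 0.15 (no scaling), and 0.30 to 0.44 without one array. It was taken over 16 probes, of which 7 are saturated. Median pairwise stability of 0.36 ranged from 0.34 to 0.37 without one array.

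Signs turned for Contig11033HKG (quantile 0.31, detected median 0.26, housekeeping mean 0.0077, unsaturated mean 0.40, gridding status 0 arrays 0.10), Contig355HKG (0.17 quantile, 0.15 detected median, 0.28 unsaturated mean), Contig29367HKG (0.069 quantile, 0.12 unsaturated mean) and Contig54282HKG (-0.34 spike-in mean, -0.23 no scaling, -0.01 without replicate 1 labelled 10 ppt, -0.028 without replicate 2 labelled 36 ppt). By the value table's labels all 11 turned, to 0.73 (Contig10375HKG), 0.16 (Contig11033HKG), 0.44 (Contig29367HKG), 0.27 (Contig355HKG), 1.04 (Contig37862HKG), 1.08 (Contig52886HKG), -0.16 (Contig54282HKG), 0.81 (Contig54739HKG), 0.81 (Contig54752HKG), 1.10 (Contig5799HKG) and 0.64 (mmc_euler_21213HKG). Of 295 values of the 11 probes under an alternative, 209 kept sign and side of the threshold, 26 lost the call, 35 gained one and 25 turned. Leaving out 1 array ended the call of Contig37862HKG 5 times, of Contig5799HKG 4 times and of Contig52886HKG 2 times in 8. Contig5799HKG also lost its call with the first spot only (-0.79, limma adjusted p = 0.0913). Where no cause is given, the cause was not tested.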
